A study of Mus musculus with 53 samples.

Results

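The effect of a high fat diet (HFD) on gene expression in the arcuate nucleus (ARC) was examined in male mice that lack a working paternal copy of *Nnat*. Members were chosen by their labels: the 4 ARC libraries of *Nnat*+/-p males on 45% HFD (replicates 50, 51, 52 and 53), and the 4 ARC libraries of *Nnat*+/-p males on chow with a labelled body weight under 35 g, called non-obese (replicates 38, 39, 40 and 43). These are 8 of the 53 libraries of the series, which also covers *Nnat*+/+ mice, obese *Nnat*+/-p mice on chow, females and the paraventricular nucleus (PVN). All 8 libraries were of C57BL/6 males, from brains collected between 13 and 14 weeks of age, and the ARC was cut from stained sections by laser capture. *Nnat* encodes neuronatin, a small membrane protein of the endoplasmic reticulum, and is imprinted, so that only the paternal copy is active. Every mouse compared here inherited the mutant copy from its father, which carries a lacZ cassette in place of exons 2 and 3, in every tissue. The HFD mice were a cohort of their own, switched from chow when young. They were also heavier, at 43.1, 42.9, 38.2 and 42.5 g against 33.6, 34.3, 34.3 and 27.4 g on chow. Diet, body weight and cohort therefore differ together between the groups and cannot be told apart.

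The ARC lies at the base of the hypothalamus and holds 2 opposing sets of neurons that control feeding. One makes the appetite-stimulating peptides neuropeptide Y and agouti-related peptide (*Npy*, *Agrp*). The other makes the melanocortin precursor proopiomelanocortin (*Pomc*), often with the CART peptide (*Cartpt*), and lowers food intake. Both sets respond to leptin from fat and to insulin. Other ARC neurons make somatostatin, growth hormone-releasing hormone or dopamine.

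The 8 libraries held between 1479953 and 7456122 counts. Replicate 39 was the shallowest and correlated with the other 3 chow libraries at 0.811 to 0.833 (Pearson's r of log2 CPM across genes, where CPM is the count per 1000000 counts of the library), against 0.898 to 0.915 among those 3. Replicate 50 had the fewest genes detected, 14999 against 17468 to 20196 in the other 7, and correlated with the other HFD libraries at 0.858 to 0.884. Replicates 39 and 40 carry the same weight of 34.3 g and may be from 1 mouse. Their counts differed by far more than sampling noise (chi-square of 60.5 per degree of freedom, 25.6 to 59.9 in the other chow pairs). This cannot tell 2 mice from 2 libraries of 1 mouse. In the PVN, replicate 19 alone is labelled 34.3 g. Replicates 39 and 40 were kept as 2 libraries, so the p-values treat them as independent, and calls lost with their counts summed are named. With the sum, 281 genes were called, 230 higher and 51 lower. Replicate 51 was labelled 42.9 g in the ARC, a weight that the PVN labels give to a wild type mouse, and results without it are given where they change. Levels below are CPM after TMM scaling, a correction of library totals by the bulk of genes, always for replicates 38, 39, 40 and 43 on chow and then 50, 51, 52 and 53 on HFD. In whole tissue, fewer cells of a type and less RNA per cell cannot be told apart.

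*Nnat* itself checks the genotype. Its CPM was 0.924, 2.25, 0.998 and 0.268 on chow and 1.05, 3.95, 3.06 and 1.67 on HFD, against a mean of 271 in *Nnat*+/+ mice on chow and 399 in *Nnat*+/+ mice on HFD. All 8 libraries thus carried the label's genotype, and *Nnat* did not pass the test between diets (log2 fold change 1.37 ± 0.50 SE, adjusted p = 0.293, edgeR quasi-likelihood test).

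Across the genome, 385 of 15753 genes tested, or 2.44%, differed between HFD and non-obese chow at an adjusted p under 0.25, the threshold of the study (edgeR quasi-likelihood test, Benjamini-Hochberg adjustment). Of these, 274 (1.74%) were higher on HFD and 111 (0.705%) were lower. At an adjusted p under 0.05 there were 43 (0.273%), 41 of them higher (0.26%) and 2 lower (0.0127%). The 4 HFD libraries lay above the 4 chow libraries without overlap in 136 of the 274 higher genes and below them in 57 of the 111 lower genes, against 329 (2.09%) and 272 (1.73%) of all genes tested. The number of calls rests on replicate 50: without it 42 genes were called, and without replicate 53 there were 759. It fell to 123 without replicate 40, 153 without replicate 51 and 238 without replicate 52. The calls that held whichever of the 8 libraries was left out numbered 36, of which 33 were higher and 3 lower. They fall mostly into 2 kinds: 24 are of classes grouped here as small non-coding RNAs, and 11 are protein-coding. The 24 include *CT010467.1*, annotated as ribosomal RNA, which spans 39846353 to 39848827 of chromosome 17 and so is not itself small. The protein-coding genes are *Tbx3*, *Otp*, *Sst*, *Serpina3n*, *Ctss*, *Irs4*, *Crabp1*, *Rps14* and *Oxt*, which were higher, and *mt-Nd4* and *Gm47791*, which were lower. The last of the 36 is the antisense transcript *Gm16638*. *Irs4*, *Crabp1* and *Rps14* were named for holding in this way, after their values were seen.

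Among genes that mark the feeding neurons of the ARC, some members of both opposing sets were called higher on HFD. The gene lists were chosen with earlier results of these data known, so their counts and medians are not independent support. In a list of 7 genes of the *Agrp* and *Npy* neurons, 4 rose (*Agrp*, *Npy*, *Otp* and *Asb4*) and none fell, with a median log2 fold change of 2.26 against -0.03 over all genes. In a list of 7 genes of the *Pomc* neurons, 4 rose (*Pomc*, *Cartpt*, *Tbx3* and *Nr5a2*) and none fell, with a median of 1.65. Without replicate 43 that median was 1.21. The members not called were *Ghsr*, *Corin* and *Acvr1c* of the first list and *Prdm12*, *Nkx2-1* and *Isl1* of the second. The call of *Nr5a2*, a nuclear receptor, was lost without replicates 40 (0.253), 50 (0.399) or 52 (0.276). With only the 2 groups in the edgeR fit, *Otp* (adjusted p = 0.0157), *Tbx3* (0.0667) and *Npy* (0.126) stayed called. *Agrp* (0.475), *Pomc* (0.441), *Cartpt* (0.324), *Asb4* (0.409) and *Nr5a2* (0.411) did not.

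**Figure D1:**
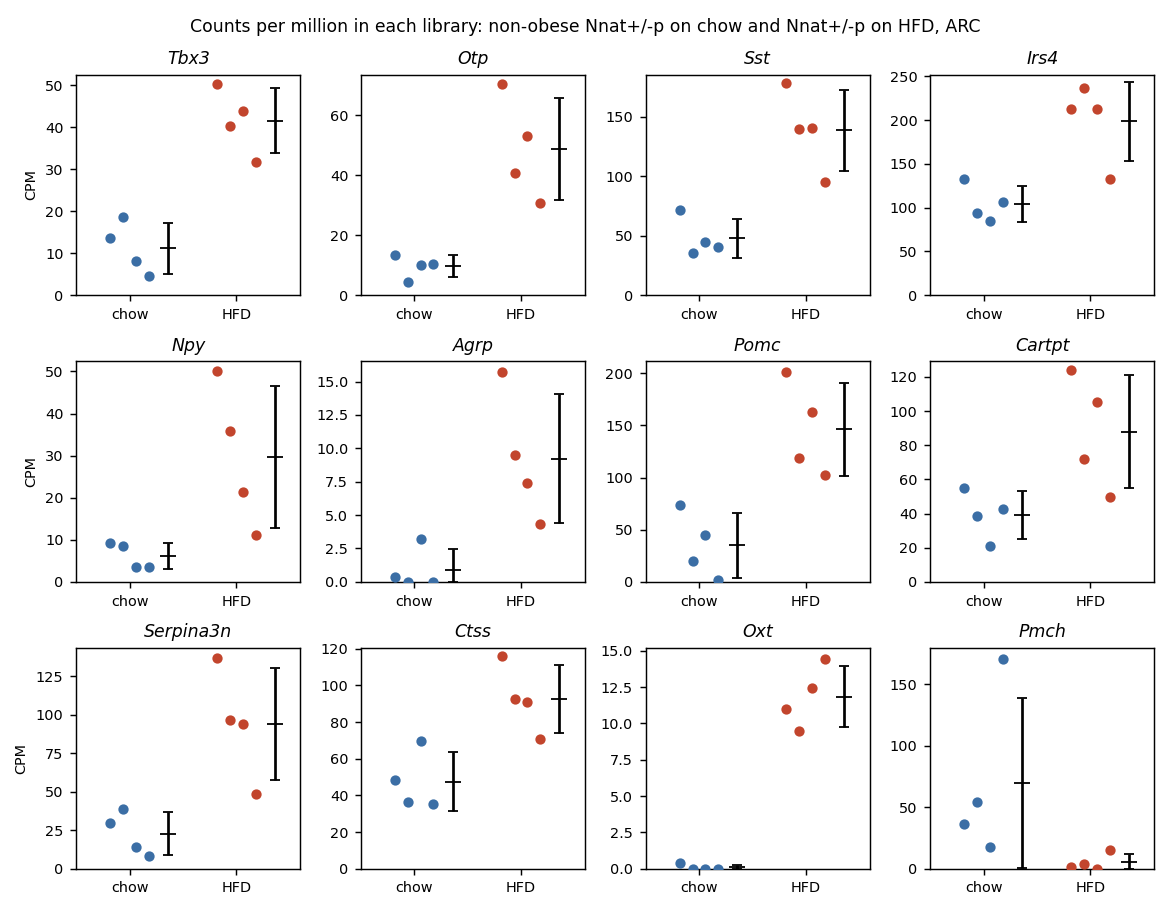
CPM (y axis) of 12 genes in each of the 4 chow libraries (blue, replicates 38, 39, 40 and 43 from left to right) and the 4 HFD libraries (red, replicates 50 to 53) of *Nnat*+/-p ARC. The black bar is the mean ± SD, cut at 0. Except for *Cartpt*, the 2 diets do not overlap in any panel, and *Pmch* alone is lower on HFD.

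*Tbx3*, a transcription factor of ARC neurons that maintains their peptide identity, read 13.5, 18.5, 8.11 and 4.56 CPM on chow and 50.3, 40.2, 43.9 and 31.7 CPM on HFD. Every HFD library was above every chow library, and the log2 fold change was 2.00 ± 0.32 (adjusted p = 0.0027, edgeR). It stayed called whichever library was left out, with adjusted p from 0.00113 to 0.0257, and when replicates 39 and 40 were added into 1 library (0.00179). *Otp*, a homeobox factor needed for neuroendocrine neurons and expressed in *Agrp* neurons, read 13.5, 4.49, 10.1 and 10.5 CPM on chow and 70.2, 40.6, 52.9 and 30.7 CPM on HFD. The groups did not overlap (2.26 ± 0.37, adjusted p = 0.0027). *Sst*, the gene for somatostatin, went from 71.5, 35.4, 44.3 and 40.0 CPM to 178, 140, 141 and 95.5 CPM, again with no overlap (1.52 ± 0.29, adjusted p = 0.0108). These 3 genes lie on chromosomes 5 (119670669 to 119684724), 13 (94875602 to 94885130) and 16 (23889573 to 23890958) of GRCm38.

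*Npy* read 9.24, 8.42, 3.62 and 3.49 CPM on chow and 50.0, 35.9, 21.4 and 11.3 CPM on HFD. All 4 HFD libraries were higher, although they spread over a wider range than those on chow (2.32 ± 0.55, adjusted p = 0.0538). *Agrp* was near its detection limit on chow, at 0.369, 0, 3.24 and 0 CPM, and reached 15.7, 9.47, 7.43 and 4.31 CPM on HFD (3.05 ± 0.85, adjusted p = 0.135). Its annotated span overlaps other genes on both strands, and the counting rule is not given in the sources used here. *Pomc* read 74.1, 20.2, 44.7 and 2.01 CPM on chow and 201, 118, 163 and 103 CPM on HFD, with a log2 fold change of 2.03 ± 0.57 (adjusted p = 0.14). The chow libraries spread widely and stayed below all HFD libraries. *Cartpt* read 54.9, 38.7, 20.8 and 42.7 CPM against 124, 72.2, 105 and 49.9 CPM, so that replicate 53 fell inside the chow range (1.16 ± 0.26, adjusted p = 0.0391). The calls of all 4 were lost without replicate 50, at adjusted p of 0.338 for *Npy*, 0.454 for *Agrp*, 0.447 for *Pomc* and 0.312 for *Cartpt*. That of *Pomc* was also lost without replicate 39 (0.271) or 40 (0.258), and with the counts of these 2 summed (0.253). None of the leave-one-out fits turned the direction of these 4 genes, and the log2 fold change of *Npy* ranged from 1.93 to 2.68.

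The promoters of these genes are shown because the genes moved together. RefSeq promoters (GRCm38.p6) were found for 4 of 6 genes sought: *Npy*, *Pomc*, *Cartpt* and *Otp*, with none for *Agrp* and *Tbx3*. The 250 bases before each RefSeq start are printed 5′ to 3′ on the gene's strand. GENCODE places some starts elsewhere: the *Cartpt* window lies inside the GENCODE gene, and the *Otp* window runs past its GENCODE start. Capitals mark TATAA, the cyclic AMP response element TGACGTCA and the STAT-type motif TTCNNNGAA, each searched on both strands, and in *Otp* 2 overlapping TATAA matches on opposite strands.
Npy, chr6:49822460-49822709, plus strand: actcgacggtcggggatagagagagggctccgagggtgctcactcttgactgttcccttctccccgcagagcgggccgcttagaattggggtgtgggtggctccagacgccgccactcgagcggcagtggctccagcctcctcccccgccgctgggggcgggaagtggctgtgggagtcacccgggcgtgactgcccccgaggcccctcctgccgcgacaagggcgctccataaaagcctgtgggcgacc
Pomc, chr12:3954695-3954944, plus strand: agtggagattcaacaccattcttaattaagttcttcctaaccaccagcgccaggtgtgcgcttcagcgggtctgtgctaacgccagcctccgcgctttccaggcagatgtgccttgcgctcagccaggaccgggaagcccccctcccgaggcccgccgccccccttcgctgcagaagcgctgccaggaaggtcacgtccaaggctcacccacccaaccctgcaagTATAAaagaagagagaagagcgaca
Cartpt, chr13:99900684-99900933, minus strand: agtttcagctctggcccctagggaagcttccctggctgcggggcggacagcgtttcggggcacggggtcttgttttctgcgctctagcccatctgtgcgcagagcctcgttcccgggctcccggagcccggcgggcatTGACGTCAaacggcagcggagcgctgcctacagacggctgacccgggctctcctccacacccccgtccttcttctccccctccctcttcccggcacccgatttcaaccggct
Otp, chr13:94875386-94875635, plus strand: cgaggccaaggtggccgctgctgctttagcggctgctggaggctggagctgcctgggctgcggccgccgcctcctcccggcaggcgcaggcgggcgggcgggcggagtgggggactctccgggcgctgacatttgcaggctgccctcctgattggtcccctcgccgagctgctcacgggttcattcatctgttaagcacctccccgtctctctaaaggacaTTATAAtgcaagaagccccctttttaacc

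TATAA was found in the *Pomc* and *Otp* windows and in 23.5% of 27025 promoter windows of this length. TGACGTCA was found in the *Cartpt* window alone of the 4, and in 1.62% of all windows. TTCNNNGAA was found in none of the 4, and in 7.18% of all windows. No motif was shared by all 4 promoters.

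Among 16 tested genes of other ARC neurons, 4 rose and none fell (median 0.33), and 1 further gene of the list, *Kiss1*, was not matched. The 4 were *Sst*, *Ghrh*, *Slc6a3* and *Esr1*, which encode somatostatin, growth hormone-releasing hormone, the dopamine transporter and estrogen receptor alpha. *Slc6a3* read 0.924, 1.68, 0 and 0 CPM on chow and 5.76, 3.16, 5.24 and 5.28 CPM on HFD (3.36 ± 0.98, adjusted p = 0.159). *Esr1* read 19.6, 12.3, 9.48 and 12.6 CPM against 42.2, 37.5, 30.8 and 12.2 CPM (1.17 ± 0.33, adjusted p = 0.138), with replicate 53 inside the chow range. *Ghrh* overlapped in the same way, with a mean of 2.78 ± 2.23 CPM (SD, n = 4) on chow and 11.8 ± 8.39 CPM (SD, n = 4) on HFD (adjusted p = 0.159). All 3 lost the call without replicate 40 or 50 (adjusted p of 0.353 and 0.591 for *Ghrh*, 0.378 and 0.406 for *Slc6a3*, 0.373 and 0.516 for *Esr1*). Without replicate 43 the p was 0.256 for *Ghrh* and 0.268 for *Slc6a3*, without replicate 52 it was 0.289 and 0.25, and without replicate 51 it was 0.306 for *Esr1*. Other peptides of this list, such as *Tac2*, *Pdyn*, *Gal*, *Nts* and *Penk*, had log2 fold changes of 0.43, 0.00, 0.50, -0.98 and -0.20, and did not pass the test.

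The 3 genes named after their values were seen held in every leave-one-out fit. *Irs4*, an adaptor of the insulin receptor found in the hypothalamus, read 132, 94.3, 85.1 and 106 CPM on chow and 213, 236, 213 and 133 CPM on HFD, where the lowest HFD library sat just above the highest on chow (0.92 ± 0.20, adjusted p = 0.0289). *Crabp1*, a retinoic acid binding protein, read 6.83, 1.68, 6.61 and 0.537 CPM against 22.8, 18.5, 27.7 and 10.4 CPM (2.25 ± 0.51, adjusted p = 0.0459). *Rps14*, a ribosomal protein, read 29.6, 25.3, 35.2 and 51.3 CPM against 108, 101, 95.5 and 56.7 CPM, without overlap (1.33 ± 0.27, adjusted p = 0.0174). With only the 2 groups in the fit, *Irs4* (adjusted p = 0.168) and *Rps14* (0.0694) stayed called and *Crabp1* did not (0.311). Of the genes of other ARC neurons, *Sst* stayed called in that fit (0.0285), and *Ghrh* (0.61), *Slc6a3* (0.552) and *Esr1* (0.487) did not.

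Genes for hormone signals into the ARC gave fewer calls. In a list of 16 genes of leptin and insulin signalling, only *Stat3*, the transcription factor downstream of the leptin receptor, rose, and none fell (median 0.08). *Stat3* read 56.3, 58.9, 60.0 and 38.1 CPM on chow and 87.8, 77.3, 71.4 and 67.1 CPM on HFD (0.51 ± 0.17, adjusted p = 0.246), a call lost without replicate 40, 43, 50, 51 or 52 (adjusted p of 0.314, 0.387, 0.632, 0.404 and 0.309). *Socs3*, the feedback inhibitor that it induces, read 4.06, 6.74, 0.748 and 0.805 CPM against 4.98, 7.89, 7.86 and 8.61 CPM, and did not pass (adjusted p = 0.416). The leptin receptor *Lepr* had a log2 fold change of -0.06. Of 18 receptors for appetite signals, *Npy2r*, the autoreceptor of neuropeptide Y, rose (1.00 ± 0.34, adjusted p = 0.241) and none fell. It was lost without replicates 38 (0.286), 39 (0.371), 40 (0.451), 50 (0.648), 51 (0.356) or 52 (0.44), and with replicates 39 and 40 summed (0.391). *Glp1r* (1.27 ± 0.72, adjusted p = 0.576) and *Ntsr1* (-1.07 ± 0.71, adjusted p = 0.659) did not pass. Neither did *Nrgn* (-0.24 ± 0.44, adjusted p = 0.914) and *Ucp2* (0.30 ± 0.23, adjusted p = 0.724), and none of 12 genes of prohormone processing was called.

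Some markers of the neighbouring nuclei also moved, in opposite directions. *Oxt*, the oxytocin gene of the paraventricular and supraoptic nuclei, read 0.369, 0, 0 and 0 CPM on chow and 11.0, 9.47, 12.5 and 14.5 CPM on HFD, which is 2 counts in 4 libraries against 227. The ratio of the scaled counts was 142 (95% exact interval 38.8 to 1180, counting error only), and the adjusted p was 0.013 (log2 fold change 6.68 ± 1.31). *Oxt* stayed called whichever library was left out. *Avp*, its neighbour that encodes vasopressin, had 1 count on chow and 31.4, 1.18, 6.77 and 2.78 CPM on HFD (ratio 218, interval 38.5 to 8640, adjusted p = 0.0731), and was lost without replicate 50 (adjusted p = 0.478). With only the 2 groups in the edgeR fit, *Oxt* stayed called (adjusted p = 0.00854) and *Avp* fell under the count filter. In a list of 6 paraventricular genes, *Oxt*, *Avp* and *Otp* rose and none fell (median 1.01). The other members, *Sim1* (-0.25), *Crh* (-2.94) and *Trh*, did not pass. The summed level of the list was 18.2 to 58.1 CPM on chow and 53.5 to 131 CPM on HFD. This sum includes *Otp*, already counted in the *Agrp* and *Npy* list, with a mean of 9.64 CPM on chow and 48.6 CPM on HFD. *Pmch*, which encodes melanin-concentrating hormone in the lateral hypothalamus, read 36.8, 53.9, 17.8 and 171 CPM on chow and 1.57, 3.95, 0 and 15.0 CPM on HFD. The groups did not overlap (-3.62 ± 0.89, adjusted p = 0.0704), and the call was lost without replicate 50 (0.338). Its list of 5 had 1 member higher (*Cartpt*, which the ARC also expresses) and 1 lower (*Pmch*). *Hcrt*, the orexin gene of the same area, read 1.29, 0, 0 and 12.6 CPM against 0, 1.18, 0 and 0.278 CPM and did not pass (adjusted p = 0.438). None of 9 genes of the ventromedial hypothalamus was called (median -0.48), and their summed level was 102 to 589 CPM on chow and 188 to 516 CPM on HFD. How the borders of the laser-captured area bear on the peptide genes was not tested.

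**Figure D2:**
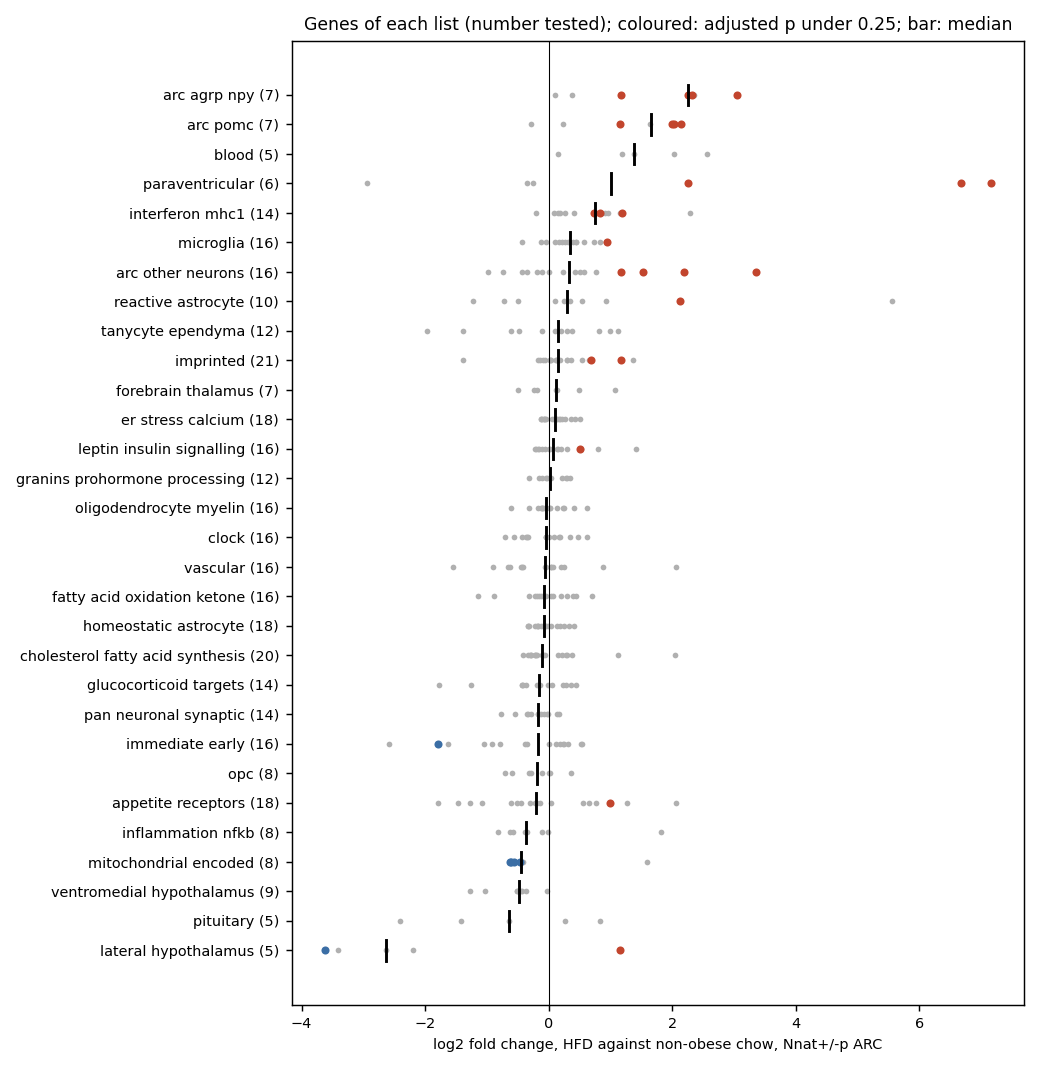
Log2 fold change of HFD against non-obese chow (x axis) for each tested gene of 30 lists (y axis, number tested in parentheses). Red and blue points passed an adjusted p under 0.25, grey points did not, and the black bar is the list's median. The *Agrp* and *Pomc* neuron lists stand at medians of 2.26 and 1.65, and the 8 mitochondrially encoded genes at -0.45.

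Glial and immune lists held few calls. *Serpina3n*, a secreted protease inhibitor that reactive astrocytes and some neurons make, read 29.9, 38.7, 14.2 and 8.32 CPM on chow and 137, 96.7, 93.9 and 48.5 CPM on HFD, with no overlap (2.12 ± 0.35, adjusted p = 0.0027). It was the only called gene of 10 tested in the reactive astrocyte list (median 0.30). *Gfap*, the astrocyte filament, read 45.8, 162, 155 and 38.0 CPM against 216, 211, 88.5 and 64.5 CPM and did not pass (0.54 ± 0.42, adjusted p = 0.724). *Ctss*, the lysosomal protease cathepsin S of microglia, read 48.4, 36.5, 69.9 and 35.3 CPM against 116, 92.7, 91.1 and 71.0 CPM, where the lowest HFD library lay just above the highest chow library (0.95 ± 0.20, adjusted p = 0.024). It was the only called gene of 16 in the microglial list (median 0.35), whose summed level was 186 to 251 CPM on chow and 256 to 302 CPM on HFD. These sums include *Ctss*, with a mean of 47.5 CPM on chow and 92.7 CPM on HFD. No other microglial gene had an unadjusted p under 0.05 (edgeR). Of 14 interferon and class I genes, 3 rose and none fell (median 0.74): *H2-K1* (1.19 ± 0.31, adjusted p = 0.0883), *B2m* (0.74 ± 0.21, 0.138) and *H2-D1* (0.84 ± 0.24, 0.154), which make up the class I antigen-presenting complex. In each of the 3 the HFD libraries were all above the chow libraries. Their calls were lost without replicate 50 (0.385, 0.478 and 0.338) or 51 (0.259, 0.277 and 0.358), that of *B2m* also without replicate 39 (0.25), and that of *H2-D1* without replicate 43 (0.287). All 3 were lost with only the 2 groups in the fit (0.475, 0.355 and 0.553).

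No gene was called among the tested members of the lists for homeostatic astrocytes (18), NF-kB inflammation (8), oligodendrocytes (16), their precursors (8), tanycytes and ependyma (12), vessels (16), blood (5), endoplasmic reticulum stress and calcium (18), glucocorticoid targets (14), cholesterol and fatty acid synthesis (20), fatty acid oxidation (16), the clock (16), pan-neuronal genes (14), pituitary (5) and forebrain or thalamus (7). The medians of these lists lay between -0.64 (pituitary) and 1.38 (blood). In the imprinted list 2 of 21 genes rose and none fell. These were *Asb4* (1.17 ± 0.27, adjusted p = 0.0504, and 0.338 without replicate 50) and *Plagl1* (0.68 ± 0.23, 0.242, and 0.651 without replicate 50). *Plagl1* was also lost without replicates 38 (0.314), 39 (0.3), 40 (0.476), 51 (0.412) or 52 (0.416), and with replicates 39 and 40 summed (0.336). Of 16 immediate early genes, *Arc* fell (-1.79 ± 0.59, adjusted p = 0.228), with replicate 39 highest on chow at 22.5 CPM, and was lost without replicates 39 (0.601), 40 (0.285), 50 (0.591), 51 (0.412) or 52 (0.378), and with replicates 39 and 40 summed (0.471). *Egr1* did not pass (-0.92 ± 0.43, adjusted p = 0.458).

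Of 8 tested genes of the mitochondrial genome in the list of respiratory subunits, 4 fell by a small amount and none rose (median -0.45). *mt-Nd4*, a subunit of respiratory complex I, read 2136, 2154, 2205 and 2285 CPM on chow and 1492, 1436, 1574 and 1205 CPM on HFD. The chow libraries lay within a narrow band above all HFD libraries (-0.62 ± 0.15, adjusted p = 0.0704), and the call held in every leave-one-out fit. *mt-Cytb* (-0.56 ± 0.16, adjusted p = 0.138), *mt-Nd2* (-0.60 ± 0.18, 0.159) and *mt-Nd5* (-0.46 ± 0.15, 0.205) also fell. Without replicate 50 their p were 0.338, 0.362 and 0.505, and without replicate 40 they were 0.278, 0.285 and 0.378. Without replicate 43 the p was 0.293 for *mt-Nd2* and 0.282 for *mt-Nd5*, without replicate 51 it was 0.276 for *mt-Cytb* and 0.359 for *mt-Nd5*, and without replicate 53 it was 0.271 and 0.308 for *mt-Nd2* and *mt-Nd5*. *mt-Nd5* was lost without replicate 38 as well (0.275). With only the 2 groups in the edgeR fit, *mt-Nd4* stayed called (adjusted p = 0.178). *mt-Cytb* (0.324), *mt-Nd2* (0.475) and *mt-Nd5* (0.475) did not. The 2 mitochondrial ribosomal RNAs had a median log2 fold change of 0.02, and 5 of 11 mitochondrial tRNAs rose, of which none kept the call without replicate 50, 1 without 40 or 43, and 2 without 51.

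Many small non-coding RNAs rose on HFD. They were grouped by annotated class after the calls were seen. The classes of snRNA, snoRNA, scaRNA, rRNA, mitochondrial tRNA, ribozyme, miRNA precursor and other small RNA held 342 tested genes. Of these, 139 (40.6%) were higher on HFD and 1 was lower, against 135 (0.876%) higher and 110 lower of the other 15411 genes. The count filter needs enough counts in only as many libraries as the smallest group holds (n = 2). A gene almost absent on chow can thus enter through HFD libraries alone, and can then hardly come out lower. *Snora30*, described below, fell under the filter with only the 2 groups in the fit. The share, the split and the class medians are therefore not independent of the filter. Small nuclear RNAs are parts of the spliceosome, snoRNAs guide the modification of ribosomal RNA, and scaRNAs guide that of snRNAs. In the snoRNA class 54 of 118 genes rose, in the snRNA class 43 of 89, in the scaRNA class 4 of 13, and in the rRNA class 17 of 68. Many of the called snoRNAs, such as *Snord116l12*, *Gm23145* and *Gm25229*, lie in introns of the same gene, *Snhg14*, and so are not separate loci. The class medians were 2.75, 3.77, 1.80 and 2.28. The counts rest on replicate 50: without it 25 of the 139 kept the call (11 snoRNAs, 8 snRNAs, 3 scaRNAs and 1 rRNA), as did 13 of the other 135. Without replicate 40, 49 of the 139 kept it, and without replicate 51, 72. Many snRNA and rRNA genes have near-identical copies, among which reads cannot be assigned with certainty.

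**Figure D3:**
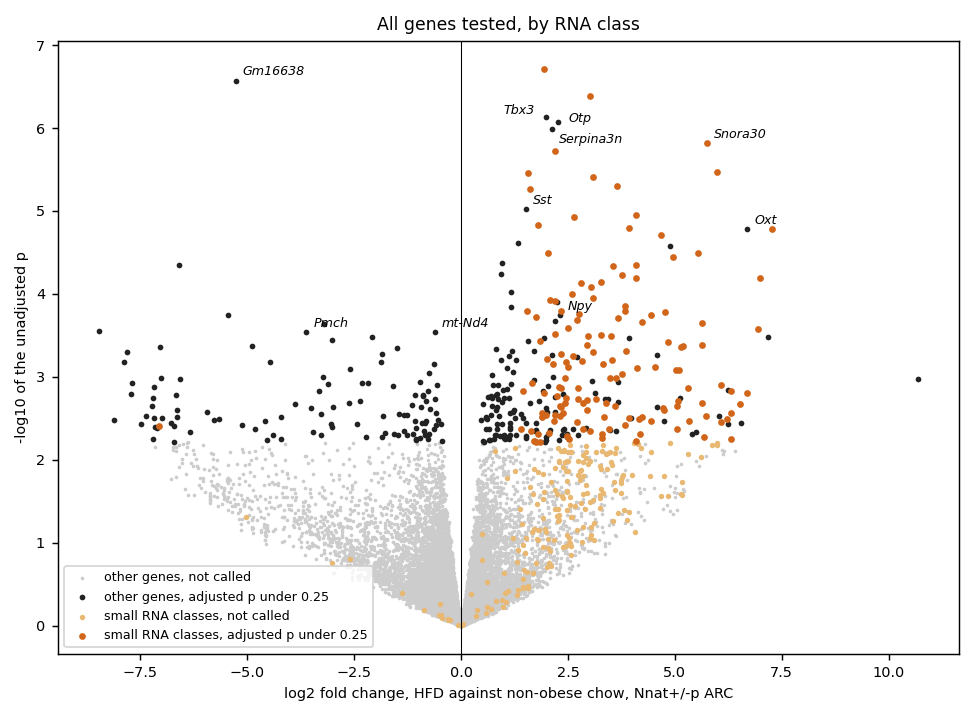
Log2 fold change of HFD against non-obese chow in *Nnat*+/-p ARC (x axis) and -log10 of the unadjusted p (y axis) for the 15753 genes tested. Dark orange points are called genes of the small RNA classes (139 higher and 1 lower), light orange points those not called, black points other called genes and grey points the rest.

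3 snoRNAs are printed because they held in every leave-one-out fit and show both families. Sequences are from GENCODE M21 (GRCm38), 5′ to 3′. In *Snora30* and *Snora73b*, of the H/ACA family, capitals mark the ACA before the last 3 bases. In *Snord17*, of the C/D family, they mark TGATGA near the start and the last CTGA. ACA stood at that place in 18.3% of 1507 annotated snoRNA transcripts, and TGATGA was found on the transcript's strand in 26.1%.
Snora30, chr7:127527874-127528003, plus strand: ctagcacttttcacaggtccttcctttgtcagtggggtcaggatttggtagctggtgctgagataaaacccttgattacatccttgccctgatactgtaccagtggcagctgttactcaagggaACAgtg
Snora73b, chr4:132352322-132352526, minus strand: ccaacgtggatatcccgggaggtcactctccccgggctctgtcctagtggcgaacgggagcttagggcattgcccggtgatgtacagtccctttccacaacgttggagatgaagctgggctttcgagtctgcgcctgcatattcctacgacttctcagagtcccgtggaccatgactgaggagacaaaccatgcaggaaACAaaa
Snord17, chr2:144265979-144266216, minus strand: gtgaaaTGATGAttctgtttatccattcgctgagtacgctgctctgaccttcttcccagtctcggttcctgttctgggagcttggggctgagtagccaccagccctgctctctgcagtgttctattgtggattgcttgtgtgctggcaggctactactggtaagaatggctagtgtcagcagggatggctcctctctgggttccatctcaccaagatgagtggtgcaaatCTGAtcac

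*Snord17* read 7.39, 3.93, 4.24 and 12.1 CPM on chow and 51.9, 24.9, 30.1 and 26.3 CPM on HFD (2.20 ± 0.38, adjusted p = 0.00371), without overlap. *Snora73b* read 1.85, 2.25, 0.125 and 5.77 CPM against 37.5, 22.5, 19.9 and 7.78 CPM (3.09 ± 0.55, adjusted p = 0.0055). *Snora30* had 2 counts on chow and 97 on HFD, a ratio of 60.6 (95% exact interval 16.3 to 508, counting error only). It read 0.185, 0, 0 and 0.134 CPM against 15.2, 3.16, 4.15 and 1.67 CPM, so replicate 50 held 62.9% of the summed HFD level. *Rpph1*, the RNA of the ribozyme RNase P, read 136, 161, 71.2 and 230 CPM against 468, 540, 451 and 308 CPM (1.56 ± 0.28, adjusted p = 0.0055). *Scarna2* read 52.3, 29.2, 18.6 and 56.5 CPM against 155, 127, 137 and 63.8 CPM (1.61 ± 0.29, adjusted p = 0.00656). *CT010467.1*, annotated as ribosomal RNA, read 22.9, 22.5, 7.36 and 26.8 CPM against 79.4, 88.4, 69.9 and 62.4 CPM (1.93 ± 0.29, adjusted p = 0.00211). In all 6 the HFD libraries stood above all chow libraries, and replicate 53 was the lowest of the HFD libraries except in *Snord17*.

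Most snoRNAs are cut from introns of other genes. Of 58 snoRNAs and scaRNAs called higher, 55 lay in an intron of a gene on the same strand, and the host gene was tested for 52 of them. None of the 35 distinct hosts was called in either direction, where 2.44% of all genes tested were. At that share, the absence of calls says little about the hosts. The median log2 fold change was 2.84 for these small RNAs and 0.09 for their hosts. *Snord17* (2.20) lies in *Snx5* (0.22), and *Snora73b* (3.09) in *Rcc1* (-0.34).

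The composition of the libraries moved with diet in the same way. The rRNA class took 1.94, 1.94, 0.321 and 0.81% of counts on chow and 3.88, 3.44, 2.73 and 1.34% on HFD. The transcript *Gm42418*, annotated as a lincRNA, alone took 7.11, 8.35, 0.965 and 1.99% on chow and 22.7, 21.8, 10.2 and 4.46% on HFD. Protein-coding genes took 44.8 to 60.8% on chow and 37.6 to 55.8% on HFD. In all 3 shares replicate 53 lay inside the chow range. The part of these shares in the gene results was not tested. When protein-coding genes alone were scaled and tested, 86 genes were called (54 higher, 32 lower), an alternative added after the data were seen, and all 86 were among the 385.

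**Figure D4:**
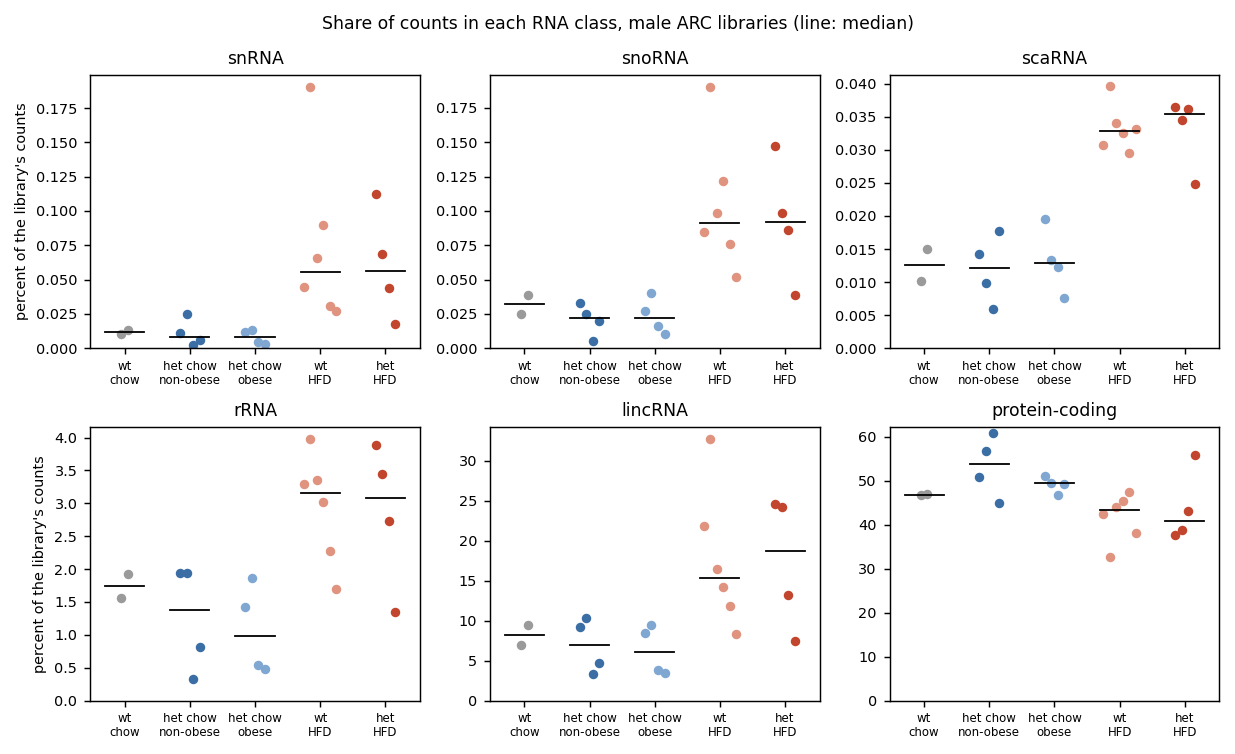
Percent of each library's counts (y axis) in 6 RNA classes for the 5 groups of male ARC libraries (x axis), with 1 point for each library and a line at the median. Both HFD groups stand above the 3 chow groups in scaRNA, at 0.0249 to 0.0365% in *Nnat*+/-p HFD libraries against 0.0059 to 0.0177% in non-obese *Nnat*+/-p chow libraries.

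The 111 genes that were lower on HFD rested more on single libraries. In 74 of them the highest chow library was replicate 39, and in 21 a single chow library held over 75% of the summed CPM. Of the 111, 4 kept the call without replicate 50, 34 without 51, 36 without 39, 38 without 40, 41 without 52, and 46 with replicates 39 and 40 summed. An exception was *Gm16638*, an antisense transcript on chromosome 7 (83597048 to 83631880, minus strand) that overlaps *Tmc3*. It read 55.8, 78.6, 84.1 and 4.70 CPM on chow and 0, 0.789, 2.84 and 1.53 CPM on HFD (-5.27 ± 0.80, adjusted p = 0.00211). *Gm47791*, a predicted coding gene on chromosome 1 (82770824 to 82771243), read 6.65, 13.5, 11.4 and 0 CPM on chow and had 1 count in all HFD libraries together, a ratio of 0.00828 (95% exact interval 0.000208 to 0.0468, adjusted p = 0.024). In both, replicate 43 was the low chow library. *Sardh*, a mitochondrial enzyme of sarcosine breakdown, read 32.0, 22.5, 41.5 and 8.05 CPM against 8.38, 2.37, 6.77 and 6.25 CPM (-2.09 ± 0.52, adjusted p = 0.0731, and 0.285 without replicate 40). *Fam83d*, a mitotic spindle gene, read 9.79, 33.1, 7.36 and 0.403 CPM against 0, 1.58, 0 and 0 CPM (-5.44 ± 1.28, adjusted p = 0.0538, and 0.285 without replicate 50). With only the 2 groups in the edgeR fit, *Gm16638* (adjusted p = 0.0271) and *Sardh* (0.178) stayed called. *Gm47791* and *Fam83d* fell under the count filter there.

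*Tgfb1*, the growth factor, read 11.6, 44.3, 7.61 and 1.34 CPM on chow and 0.786, 3.16, 1.75 and 1.25 CPM on HFD (-3.21 ± 0.77, adjusted p = 0.0609). *Slc5a7*, the choline transporter of cholinergic neurons, read 17.9, 121, 29.1 and 16.0 CPM against 4.72, 6.71, 3.71 and 6.39 CPM (-3.03 ± 0.76, adjusted p = 0.0765). Replicate 39 was far above the other chow libraries in both, and without it the p were 0.297 and 0.314. Without replicate 50 both were 0.338. With only the 2 groups in the edgeR fit, *Slc5a7* stayed called (adjusted p = 0.0948) and *Tgfb1* did not (0.324). *Rasgrp2*, a guanine nucleotide exchange factor, was more even, at 17.2, 26.9, 13.6 and 19.2 CPM against 5.76, 8.68, 7.86 and 4.72 CPM (-1.51 ± 0.38, adjusted p = 0.0842, and 0.338 without replicate 50). *Olfr411*, *Ptger1* and *Slc12a3* had no count in any HFD library. Taking 3 counts in a library of median depth (0.715 CPM) as the floor, their median on chow was at least 3.31-fold, 3.81-fold and 3.13-fold higher. All 3 were lost without replicate 50 (0.285, 0.313 and 0.338), *Olfr411* also without 39 (0.25). *Ptger1* fell under the count filter without replicate 40, and *Slc12a3* without replicate 39 or 40 or with the 2 summed. With only the 2 groups in the fit, all 3 genes fell under it.

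Whether the diet difference depended on genotype was asked with the difference between the *Nnat*+/-p comparison and that of *Nnat*+/+ mice on HFD (n = 6) and chow (n = 2, after the shallowest library was left out). Only 2 genes passed at an adjusted p under 0.25 (0.0127% of those tested), both through single libraries. *Kif21a*, a kinesin, read 274, 223, 271 and 248 CPM on chow and 168, 5990, 237 and 236 CPM on HFD, and *Gm30806* was at 0 in all 8 libraries but replicate 51, at 160 CPM. The count was 0 without replicate 38, 39, 40, 43 or 51, and without replicate 51 the log2 fold change of *Kif21a* between the diets went from 2.70 to -0.25. DESeq2 and limma called 0 genes for this question, and 614 genes had an unadjusted p under 0.05 in edgeR, 3.9% of those tested. *Oxt* had an unadjusted p of 0.000577 and an adjusted p of 1. An adjusted p that misses the threshold does not show that the genotypes responded alike.

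The *Nnat*+/+ comparison shares no library with that of *Nnat*+/-p mice. It called 182 genes (1.16%), 78 higher (0.495%) and 104 lower (0.66%). Of the 274 genes higher in *Nnat*+/-p mice 50 were also called higher there, which is 18.2% of the first list and 64.1% of the second. Of these 50, 28 were of the small RNA classes. Of the 111 lower, 14 were shared (12.6% and 13.5%). The log2 fold changes in *Nnat*+/+ mice were 2.30 for *Tbx3* (adjusted p = 0.0169), 1.43 for *Otp* (0.266), 1.28 for *Sst* (0.19), 2.82 for *Serpina3n* (0.00949), 1.91 for *Cartpt* (0.0143) and 2.20 for *Npy* (0.263). That of *Oxt* was 0.12 (0.995), with means of 1.58 CPM on chow and 1.71 CPM on HFD.

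**Figure D5:**
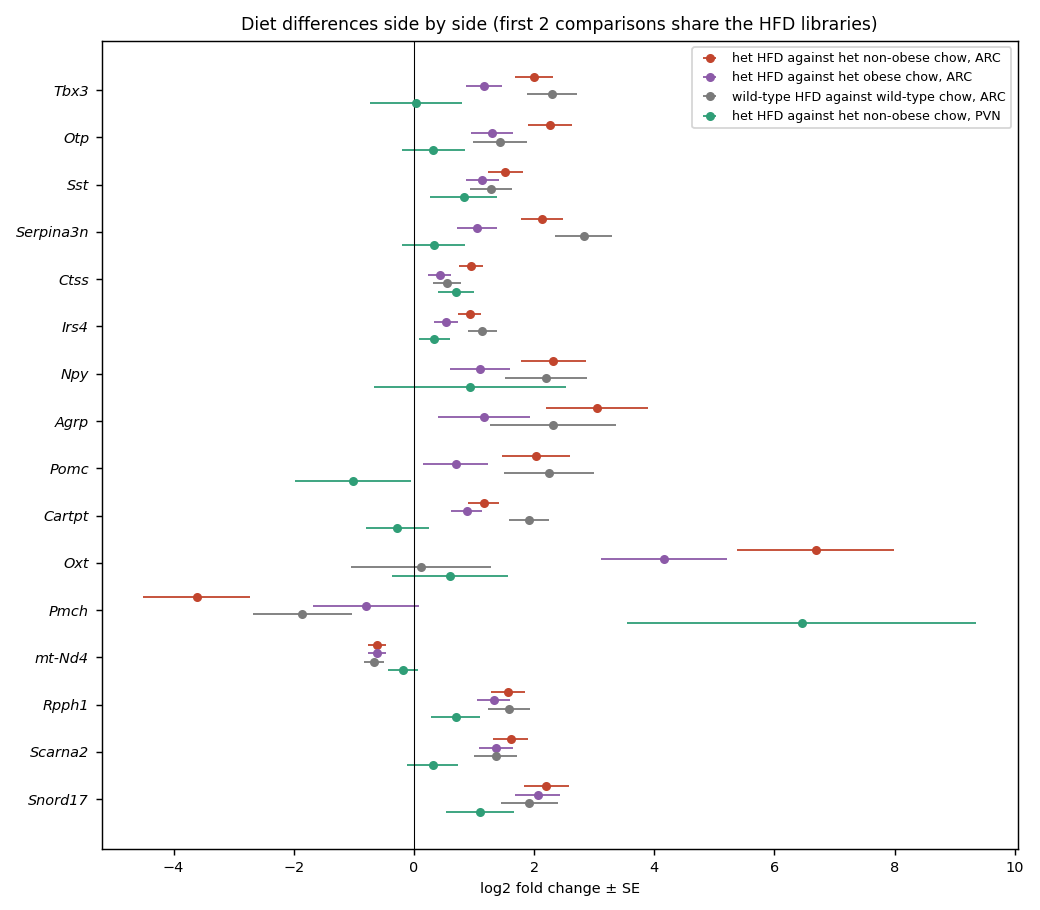
Log2 fold change ± SE (x axis) of 16 genes (y axis) in 4 comparisons: *Nnat*+/-p HFD against non-obese chow (red) and against obese chow (purple), *Nnat*+/+ HFD against chow (grey), all in the ARC, and *Nnat*+/-p HFD against non-obese chow in the PVN (green). *Tbx3* stands at 2.00, 1.16, 2.30 and 0.03 in this order.

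Set against obese *Nnat*+/-p mice on chow (n = 4, 38.8 to 46.5 g, which overlaps the HFD weights), the same HFD libraries gave 200 calls (1.27%), 167 higher (1.06%) and 33 lower (0.209%). There were 13 without replicate 50, 66 without replicate 51 and 544 without replicate 53. Since the HFD libraries are shared, the 2 comparisons are given side by side only. The small RNA classes had medians of 2.59 in both, and 112 of their 342 genes were higher than in obese mice. *Rpph1* was 1.56 against non-obese and 1.33 against obese mice (adjusted p = 0.0389), and *mt-Nd4* was -0.62 and -0.61 (0.11). *Tbx3* was 2.00 against non-obese and 1.16 against obese mice (0.129), *Otp* 2.26 and 1.29 (0.143), *Sst* 1.52 and 1.14 (0.11), *Npy* 2.32 and 1.10 (0.526), *Pomc* 2.03 and 0.69 (0.768), and *Pmch* -3.62 and -0.80 (0.858). The gap between the 2 comparisons is the difference of obese from non-obese chow mice in the same model. It was 0.83 for *Tbx3* (unadjusted p = 0.0144), 0.97 for *Otp* (0.0123), 1.22 for *Npy* (0.0316), 1.34 for *Pomc* (0.0241) and -2.82 for *Pmch* (0.00197), each with an adjusted p of 0.81 (edgeR). No gene was called between these chow groups by edgeR's test at this threshold (0 of 15753, or 0%, with 944, or 5.99%, at an unadjusted p under 0.05).

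In the PVN, the same contrast of *Nnat*+/-p mice (3 libraries on HFD, 3 on non-obese chow) gave 16 calls (0.091%), 1 higher (0.00569%) and 15 lower (0.0853%). The labelled weights (33.6, 34.3 and 27.4 g on chow, 43.1 and 38.2 g on HFD) recur in the ARC libraries, so most of these libraries appear to come from the same mice, and the PVN is not an independent set of animals. Of 219 small RNA genes tested there 0 were called higher by edgeR, where 1 gene was in all. Their median log2 fold change was -0.17, that of snoRNAs 0.11 and that of snRNAs -0.36. Most of those described for the ARC had values above 0 in the PVN that did not pass, such as *Snord17* (1.10 ± 0.56), *Snora73b* (0.75 ± 0.53), *Rpph1* (0.69 ± 0.41), *Snora30* (0.58 ± 0.92) and *Scarna2* (0.31 ± 0.42), while *CT010467.1* stood at -0.11 ± 0.29. *Tbx3* was 0.03 ± 0.77 and *Sst* 0.83 ± 0.55. Of the 111 genes lower in the ARC, 107 were tested in the PVN and 9 were called lower, which is 9 of the 15 lower there. They were *Gm16638*, *Gm47791*, *Fam83d*, *Sardh*, *Olfr411*, *Alx4*, *Amtn*, *Cfap44* and *Gm11825*. The ARC calls of *Amtn*, *Cfap44* and *Gm11825* were lost with the counts of replicates 39 and 40 summed, and also without replicate 39, 50 or 52. *Gm16638* read 158, 581 and 2.79 CPM on chow and 7.59, 9.91 and 4.70 CPM on HFD in the PVN (log2 fold change -5.05 ± 1.02, adjusted p = 0.0889), where the low chow library has the weight of replicate 43, the low one in the ARC. *Fam83d* read 15.5, 119 and 0.798 CPM against 0.143, 0 and 2.68 CPM (-5.49 ± 1.10, adjusted p = 0.0889), and its high library has the weight of replicates 39 and 40. The last 4 of the 9 were named after their values were seen. The difference between the nuclei was not tested.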

How the data were processed

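RNA from laser-captured ARC of male mice was sequenced as total RNA libraries of low input. The authors deposited raw counts: each value is the number of reads assigned to a gene in 1 library, not normalized. The submitters' processing notes name STAR 2.5.0a and GRCm38, and the counting rule and strand setting are not given in the sources used here. Reads carry no molecular identifiers, so counting intervals cover counting error only. Nothing says that replicates 39 and 40 are separate mice, and p-values measure the spread between libraries.

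The members and gene lists were chosen with earlier results of these data known. Counts of all 20 male ARC libraries with at least 25% of the median total entered 1 model (edgeR 4.0.16 under R 4.3.3, filterByExpr with a minimum count of 10, TMM scaling, quasi-likelihood test), with p adjusted by Benjamini-Hochberg. Named genes were *Nnat*, 10 genes of the study or of ARC peptides, the 15 calls with the smallest p in each direction, the 2 with the smallest p and all calls of each list, and calls of the genotype difference. *Gm42418* and list members named beyond this rule were chosen after their values were seen. Of the genes this rule names, 1 is not reported here. Classes and positions are from GENCODE M21. DESeq2 1.42.0 and limma 3.58.1 were alternatives. Fits were tested on simulated data. Only 1 library of the ARC table was left out.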

Additional observations from a re-analysis of the deposited data

Results flagged for a closer look

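A single library that lay far from the other 3 of its group was sought with Dixon's ratio, the gap to the nearest library divided by the group's range, for the 66 named genes in both groups. It passed the 95% critical value in 16 of 132 groups. Where a single library of a group had any count, the ratio is 1 whatever that count. This holds for *Oxt* and *Avp* on chow and for *Gm47791*, *Fam83d*, *Epop* and *Gm30806* on HFD. Groups without any count, such as *Olfr411*, *Ptger1* and *Slc12a3* on HFD, have no ratio but are among the 132. The number of groups that passed therefore cannot be set against chance. On chow, replicate 39 was the highest for *Slc5a7* (0.875), *AW047730* (0.953), *Olfr411* (0.859), *Slc12a3* (0.835) and *Avp* (1, a single count). Replicate 40 was the highest for *Agrp* (0.886), replicate 38 for *Oxt* (1, at 2 counts) and replicate 43 for *Hcrt* (0.897), while replicate 43 was the lowest for *Stat3* (0.833). On HFD, replicate 53 was the highest for *Arc* (0.873) and *Epop* (1) and the lowest for *mt-Nd2* (0.904). Replicate 51 was the highest for *Kif21a* (0.988), *Gm30806* (1) and *Fam83d* (1), and replicate 52 for *Gm47791* (1, a single count).

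The diet difference of *Kif21a* (adjusted p = 0.129) and *Gm30806* (adjusted p = 0.135) differed between *Nnat*+/-p and *Nnat*+/+ mice by edgeR's quasi-likelihood test. Both rested on replicate 51 and on 1 *Nnat*+/+ chow library, which read 2488 CPM for *Kif21a* and 68.1 CPM for *Gm30806*.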

How the results depend on the processing

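The number of genes called between HFD and non-obese chow (385) was 43 at an adjusted p under 0.05, 642 with DESeq2, 33 with limma voom, 395 with RLE scaling, 670 without the count filter, 114 with the shallow library kept, 39 with only the 2 groups in the fit, 281 with the counts of replicates 39 and 40 summed, and 145 without libraries of conflicting weight. Leaving out 1 library gave 42 to 759. Against obese chow (200), the same settings gave 18, 371, 40, 222, 482, 44, no value for the 2 groups, 373 and 60, and leaving out 1 library 13 to 544. For the genotype difference (2) they gave 0, 0, 0, 2, 24, 1, no value, 0 and 0, and 0 to 2. Of 2 alternatives added after the data were seen, protein-coding genes only gave 86, 8 and 1, and leaving out replicates 39 and 50 gave 29, 12 and 1. The cause of these changes was not tested.

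Of the values of named genes under the alternatives, 1509 kept their direction and side of the threshold, 257 lost the call, 22 gained it and 6 changed sign. The last were log2 fold changes of *Nrgn* leaving out 1 library (-0.59 to 0.077, the latter without replicate 40), *Cldn11* with voom (-0.16) and without replicates 39 and 50 (-0.017), *Eif2ak3* without these 2 (-0.19), and *Kif21a* without conflicting weights (-0.26) or leaving out 1 library (-0.25 to 3.08, the former without replicate 51). No paired analysis was possible because no replicate number is shared between groups.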
